A study of Mus musculus with 6 samples.

Results

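The insulin-like growth factor (IGF) axis was examined in the lungs of mice at postnatal day 6 with and without an active human SRY transgene. It was taken as 10 genes, chosen with earlier results of these data known and matched by the gene symbols of the array. They comprise the ligands Igf1 and Igf2, the receptors Igf1r and Igf2r, and the binding proteins Igfbp2 to Igfbp7. Together they held 15 of the 25697 probes and 10 of the 18138 gene symbols of the Illumina MouseRef-8 BeadChip, a microarray on which each probe is read as the brightness of many beads. The study examined what ectopic SRY, the testis-determining gene of the Y chromosome, does in organs other than the gonad. It reported that hSRY-ON pups suckled little and were already retarded in growth at postnatal day 6. Effects of feeding and body growth therefore cannot be told apart from those of SRY in these values.

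All 6 animals were male, and the labels give their strain as FVB and the methods as FVB/N. Each lung gave 1 array. The responder mice carried 1 copy of Signalox-hSRY at the H11 locus, where the broadly active CAG promoter drives DsRed2 until a Cre recombinase removes it. Removal places human SRY and EGFP under the same promoter. In the 3 hSRY-ON mice this was done by Cre from the oocyte of a Ddx4-Cre mother, before the fertilized egg divided, and the mice used for the arrays had not inherited Ddx4-Cre itself. The other 3 mice were labelled hSRY-OFF, the methods' name for mice with Signalox-hSRY that was not recombined. The study also used littermates without the transgene as controls, so that the hSRY-OFF mice carried it rests on the label. The cross that gave the hSRY-OFF mice is not stated. If it was not that of the hSRY-ON mice, effects of cross and of SRY cannot be told apart. The hSRY-ON mice descend from 1 responder line. The labels number the mice of each group as replicates and do not give their litters, so the p-values measure the spread between these arrays.

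IGF1 and IGF2 are secreted peptides that promote growth and survival of cells through the receptor tyrosine kinase IGF1R, whereas IGF2R binds IGF2 and carries it to the lysosome without a growth signal. The IGF binding proteins hold the ligands in blood and tissue, prolong their life and keep them from, or deliver them to, the receptor, and proteases release the ligands again. In the developing lung many of these genes are expressed by mesenchymal cells, with macrophages as a further source of Igf1, and signalling through Igf1r is needed for normal lung growth. Igf2 is a fetal growth factor whose level falls in most tissues of the mouse after birth.

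A probe was called when its limma p-value, adjusted by Benjamini-Hochberg over all 13841 probes tested, was under 0.05. Values are normalized log2 intensities, on which a difference of 1 is a 2-fold change, and changes are hSRY-ON minus hSRY-OFF. An exact permutation test of 3 against 3 arrays cannot give a two-sided p below 0.1, so limma's moderated test was used throughout. The arrays detected 13191 to 14134 probes each, with a median raw intensity per array of 177.1 to 204.0. The lung label was checked against 10 epithelial markers. Of these, 9 were tested, with a mean log2 level between 13.34 and 13.40 in hSRY-OFF and between 13.47 and 13.61 in hSRY-ON. The array of hSRY-ON replicate 3 lay nearer to the hSRY-OFF group than the other hSRY-ON arrays for most of the genes described here. The brighter Igf1 probe and the counts of IGF axis probes called are also given without it.

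The samples were whole lungs, in which fewer cells of a type and less RNA per cell cannot be told apart. Of the 15 probes, 14 passed the filter on detection, with at least 1 for each of the 10 genes. The exception was 1 of the 2 probes of Igfbp7 (ILMN_2634286), which was not detected on any array. Of the 14 probes, 9 were called, where 26.9% of all tested probes were called. The 9 belonged to 7 genes, counting a gene if any of its probes was called. By their brightest probe, 27.9% of all 10292 genes tested were called, and by that rule Igf1 was not called. The called Igf1 probe passed the filter through hSRY-OFF, where it is high. Igf2, Igfbp3, Igfbp5 and Igfbp6 rose with 1 probe each, so that 4 of 14 were called higher against 13.6% of all tested probes. Called lower were 1 of the 2 Igf1 probes and both probes of Igfbp2 and of Igfbp4. These were 5 of 14, against 13.3% called lower over the array. Neither receptor was called. The groups did not overlap in 10 of the 14 probes, where 46.6% of all tested probes had no overlap. The change was 2-fold or more in 6 probes, against 10.3% of all tested probes. The median change of the 14 probes was −0.27 and the median size of change, without its sign, was 0.96, beside −0.03 and 0.32 over all tested probes.

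**Figure D1:**
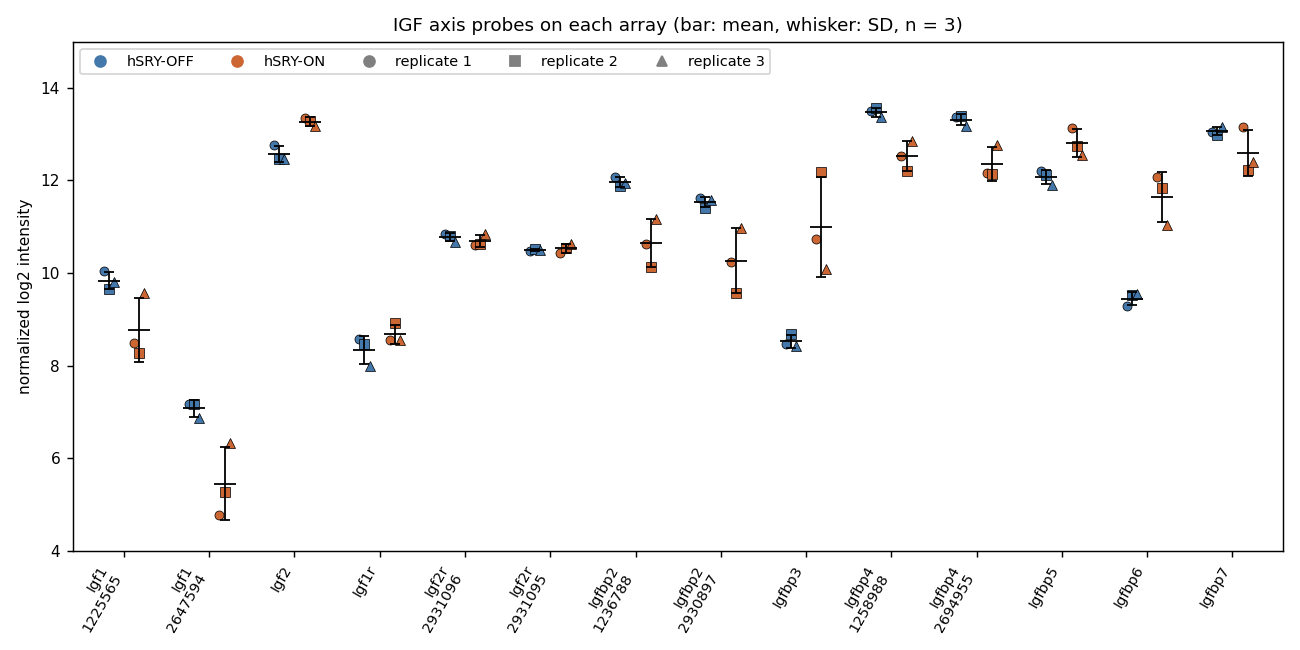
Normalized log2 intensity (vertical axis) of each tested IGF axis probe (horizontal axis, with the probe number where a gene has more than 1) on each array. Blue symbols are hSRY-OFF and orange symbols hSRY-ON, symbol shapes mark the replicate number, bars are means and whiskers SD (n = 3 per group). The hSRY-ON arrays of Igfbp3 and Igfbp6 sit above 10 while their hSRY-OFF arrays sit below it, and both probes of Igfbp2 and Igfbp4 sit lower in hSRY-ON.

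Sequence before the start of transcription is shown for 4 of the genes whose probes were called, to place them in the genome and to show the motifs found there. Igfbp3 and Igfbp6 had the largest rises, and the windows of Igfbp4, Igfbp6 and Igf2 hold a match. These windows were chosen after the values were seen. Each holds the 250 bases before a RefSeq start site on build GRCm38.p6, written 5′ to 3′ on the strand of the gene, and capitals mark a motif match. The Igfbp3 window lies at chr11:7213924-7214173 on the minus strand, the Igfbp6 window at chr15:102143936-102144185 on the plus strand and the Igfbp4 window at chr11:99040994-99041243 on the plus strand. The Igf2 window, the second of its 4 start sites in the table, lies at chr7:142661272-142661521 on the minus strand.
Igfbp3: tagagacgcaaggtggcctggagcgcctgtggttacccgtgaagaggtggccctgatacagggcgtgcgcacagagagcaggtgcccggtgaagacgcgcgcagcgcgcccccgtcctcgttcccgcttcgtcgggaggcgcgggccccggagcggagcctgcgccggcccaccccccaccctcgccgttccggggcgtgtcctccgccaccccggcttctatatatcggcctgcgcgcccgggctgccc
Igfbp6: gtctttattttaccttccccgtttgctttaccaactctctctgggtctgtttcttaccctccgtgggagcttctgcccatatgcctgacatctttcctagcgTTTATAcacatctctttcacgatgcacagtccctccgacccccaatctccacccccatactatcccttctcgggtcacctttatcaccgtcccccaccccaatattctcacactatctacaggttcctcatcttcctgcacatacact
Igfbp4: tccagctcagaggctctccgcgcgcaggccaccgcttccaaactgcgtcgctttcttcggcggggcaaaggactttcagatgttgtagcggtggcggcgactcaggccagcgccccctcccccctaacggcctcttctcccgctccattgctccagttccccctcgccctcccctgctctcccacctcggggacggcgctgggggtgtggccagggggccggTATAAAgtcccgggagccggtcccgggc
Igf2: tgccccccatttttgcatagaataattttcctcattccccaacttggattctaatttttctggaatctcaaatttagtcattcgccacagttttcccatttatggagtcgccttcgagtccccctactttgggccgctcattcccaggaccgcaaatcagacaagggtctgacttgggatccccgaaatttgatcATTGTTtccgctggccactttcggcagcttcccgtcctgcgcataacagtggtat

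All 10 genes were found in the RefSeq table, with 14 windows between them. The core motif that SRY and SOX proteins bind, AACAAT on either strand, was in 1 of the 14 windows and in 9.42% of the 32851 windows of all genes. The match in Igf2, written ATTGTT on the strand shown, begins 55 bases before the start. TATAAA, the core of the TATA box, was in 2 windows and in 12.4% of all windows. It begins 28 bases before the start of Igfbp4, and in Igfbp6 it lies on the opposite strand, 148 bases before the start. The FOXO motif GTAAACA was in none of the 14 windows and in 3.17% of all. The palindromic motif of the glucocorticoid receptor was in none of the 14 and in 0.387% of all. These motifs do not overlap one another in the windows shown. The matches are descriptions of the letters in these windows, and no binding was measured.

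Of the ligands, Igf2 was called higher. Only the dimmer Igf1 probe was called, and lower, while the brighter missed the threshold. Igf2, the fetal ligand, measured 12.78, 12.47 and 12.47 on hSRY-OFF arrays 1 to 3 and 13.36, 13.28 and 13.17 on hSRY-ON arrays 1 to 3. Every hSRY-ON array was above every hSRY-OFF array. The mean rose from 12.57 ± 0.18 (SD, n = 3) to 13.27 ± 0.09, a change of 0.70 with a standard error of 0.13 and a limma 95% interval of 0.38 to 1.02, which is 1.63-fold (limma adjusted p = 0.0112). Without hSRY-OFF replicate 2 the limma adjusted p was 0.0556, with a change of 0.65.

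Igf1, the main growth ligand of postnatal life, had 2 probes. The brighter (ILMN_1225565) measured 10.04, 9.66 and 9.81 in hSRY-OFF and 8.48, 8.27 and 9.56 in hSRY-ON. The groups did not overlap, but hSRY-ON replicate 3 was just below the lowest hSRY-OFF array while the other 2 were lower by more than 1. The change was −1.07 with a standard error of 0.33 and a 95% interval of −1.84 to −0.30, and the limma adjusted p of 0.0503 missed the threshold. Without hSRY-ON replicate 3 the change was −1.46 (limma adjusted p = 0.00259). Over all 18 alternative fits the adjusted p of this probe ran from 0.00259 to 0.151, and it was under 0.05 in 10 of them.

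The other Igf1 probe (ILMN_2647594) was called lower. It measured 7.17, 7.18 and 6.87 in hSRY-OFF and 4.77, 5.26 and 6.32 in hSRY-ON. It was detected on all 3 hSRY-OFF arrays but only on replicate 3 of hSRY-ON, so the lower values lie near background. The probe passed the filter through hSRY-OFF, where it is high, and so is no support for a direction of Igf1. The mean went from 7.07 ± 0.17 (SD, n = 3) to 5.45 ± 0.79, a change of −1.62 with a standard error of 0.37 (3.08-fold lower, limma adjusted p = 0.0187). Its size depended on the treatment of background. Without background correction the change was −0.59 (limma adjusted p = 0.0107), and with a larger offset of 50 it was −1.08. The call was lost without hSRY-OFF replicate 1 (adjusted p = 0.0695), hSRY-OFF replicate 2 (0.0706) or hSRY-ON replicate 2 (0.0639).

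The receptors were not called. Igf1r, which carries the growth signal of both ligands, measured 8.57, 8.46 and 7.99 in hSRY-OFF and 8.56, 8.91 and 8.56 in hSRY-ON. The groups overlapped. The change was 0.33 with a 95% interval of −0.11 to 0.78 (limma adjusted p = 0.227), so the interval takes in both no change and a rise of up to 0.78.

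Igf2r, the clearance receptor of IGF2, had 2 probes that both overlapped between groups. ILMN_2931096 measured 10.84, 10.81 and 10.67 in hSRY-OFF and 10.62, 10.63 and 10.85 in hSRY-ON. ILMN_2931095 measured 10.48, 10.53 and 10.50 in hSRY-OFF and 10.43, 10.54 and 10.62 in hSRY-ON. Their changes were −0.08 (95% interval −0.37 to 0.21, limma adjusted p = 0.676) and 0.03 (−0.23 to 0.29, limma adjusted p = 0.865). Both intervals were narrower than that of Igf1r, and the sign of the second turned in 1 of 18 alternative fits.

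Among the binding proteins, Igfbp3, Igfbp5 and Igfbp6 rose while Igfbp2 and Igfbp4 fell. Igfbp6, which binds IGF2 in preference to IGF1, measured 9.28, 9.52 and 9.55 in hSRY-OFF and 12.08, 11.84 and 11.05 in hSRY-ON. Even the lowest hSRY-ON array lay above the highest hSRY-OFF array by more than 1. The mean went from 9.45 ± 0.15 (SD, n = 3) to 11.65 ± 0.54, a change of 2.20 with a standard error of 0.26 and a 95% interval of 1.58 to 2.82, which is 4.61-fold (limma adjusted p = 0.00250). In the deposited intensities this was 758, 815 and 1025 against 4053, 3819 and 2394. This was the smallest adjusted p among the 14 probes.

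Igfbp3, the main carrier of IGFs in adult blood, showed the largest change of the 14 probes. It measured 8.46, 8.68 and 8.43 in hSRY-OFF and 10.74, 12.19 and 10.08 in hSRY-ON. All 3 hSRY-ON arrays were well above the hSRY-OFF arrays, with hSRY-ON replicate 2 the highest. The mean went from 8.52 ± 0.14 (SD, n = 3) to 11.00 ± 1.08, a change of 2.48 with a standard error of 0.48 and a 95% interval of 1.35 to 3.62, which is 5.59-fold (limma adjusted p = 0.0116). The deposited intensities were 498, 518 and 556 in hSRY-OFF and 1676, 4898 and 1289 in hSRY-ON. The spread within hSRY-ON was the widest of all tested IGF axis probes. Without replicate 2 the change was 1.87 (limma adjusted p = 0.00683).

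Igfbp5, a binding protein that also attaches to extracellular matrix, rose by less. It measured 12.21, 12.12 and 11.90 in hSRY-OFF and 13.13, 12.76 and 12.54 in hSRY-ON, without overlap. The change was 0.73 with a standard error of 0.18 and a 95% interval of 0.31 to 1.15, which is 1.66-fold (limma adjusted p = 0.0244). The direction held with every array left out in turn, but the adjusted p passed 0.05 without any 1 of the hSRY-OFF arrays (0.0624, 0.0761 and 0.0822 for replicates 1 to 3) and without hSRY-ON replicate 2 (0.0575).

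Igfbp2, a major binding protein of fetal and neonatal life, fell with both of its probes. ILMN_1236788 measured 12.09, 11.88 and 11.95 in hSRY-OFF and 10.63, 10.13 and 11.17 in hSRY-ON. ILMN_2930897 measured 11.62, 11.40 and 11.58 in hSRY-OFF and 10.24, 9.58 and 10.98 in hSRY-ON. On both probes the hSRY-ON arrays kept the same order, with replicate 2 lowest and replicate 3 highest, and none reached the hSRY-OFF range. The changes were −1.33 with a standard error of 0.25 (2.51-fold lower, limma adjusted p = 0.0110) and −1.27 with a standard error of 0.32 (2.41-fold lower, limma adjusted p = 0.0285). The second call was lost without hSRY-OFF replicate 1, 2 or 3 (adjusted p = 0.0945, 0.0771 and 0.0824).

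Igfbp4, which mostly restrains IGF action until a protease cuts it, also fell with both probes. ILMN_1258988 measured 13.50, 13.56 and 13.37 in hSRY-OFF and 12.52, 12.20 and 12.85 in hSRY-ON. ILMN_2694955 measured 13.37, 13.39 and 13.19 in hSRY-OFF and 12.17, 12.13 and 12.77 in hSRY-ON. The groups did not overlap on either probe. The changes were almost equal, −0.95 with a standard error of 0.18 (1.93-fold lower, limma adjusted p = 0.0104) and −0.96 with a standard error of 0.19 (1.95-fold lower, limma adjusted p = 0.0127). The second call was lost without hSRY-OFF replicate 1 (adjusted p = 0.0547) or 2 (0.0562).

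Igfbp7, a related protein of blood vessels that binds IGFs weakly, was not called. Its tested probe (ILMN_2764588) measured 13.06, 12.98 and 13.16 in hSRY-OFF and 13.16, 12.23 and 12.39 in hSRY-ON. Replicates 2 and 3 of hSRY-ON were below all hSRY-OFF arrays, whereas replicate 1 was level with the highest of them. The change was −0.47 with a 95% interval of −1.04 to 0.10 (limma adjusted p = 0.187). Without hSRY-ON replicate 1 it was −0.75 (limma adjusted p = 0.00869).

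**Figure D2:**
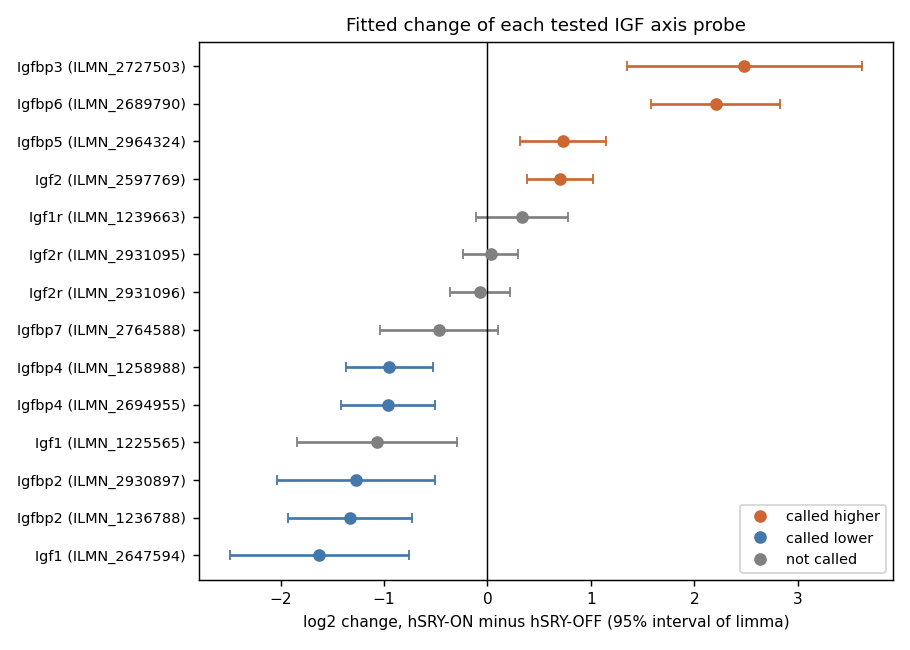
Fitted log2 change, hSRY-ON minus hSRY-OFF (horizontal axis), of each tested IGF axis probe (vertical axis), with the limma 95% interval as a bar, from 3 arrays per group. Orange marks probes called higher, blue those called lower and grey those not called. The intervals of Igfbp3 and Igfbp6 lie above 1, and those of Igf1r, both Igf2r probes and Igfbp7 span 0.

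The 3 hSRY-ON mice differed in how far they lay from the hSRY-OFF group. In all 9 called probes the hSRY-ON array nearest to the hSRY-OFF mean was replicate 3, 5 of them lower and 4 higher. Over all probes called on the array, replicate 3 was the nearest in 49.1%, replicate 1 in 35.5% and replicate 2 in 15.4%. The SD was larger in hSRY-ON than in hSRY-OFF for 12 of the 14 probes, against 73.6% of all tested probes. Without hSRY-ON replicate 3, 4 IGF axis probes were called higher and 6 lower, the sixth being the brighter Igf1 probe.

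The adjacent members Igfbp2 and Igfbp5 moved in opposite directions. In the order of RefSeq genes on GRCm38.p6, they are neighbouring protein-coding genes on chromosome 1, and the former fell while the latter rose. Igfbp3 is next to Igfbp1 on chromosome 11, and Igfbp1 was not detected on any array. Igfbp4, also on chromosome 11, is next to the proliferation gene Top2a, which encodes a topoisomerase of dividing cells and fell by 1.68 (limma adjusted p = 0.0131). Igf2 on chromosome 7 is next to Ins2.

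The remaining genes of the pathway were examined as 5 lists of 49 genes, of which 45 were on the array and 31 were tested, each by its brightest probe. The lists too were chosen with earlier results of these data known, so their counts are descriptions. Of the 31, 7 were called higher and 3 lower, where 14.9% of the 10292 genes tested were called higher and 12.9% lower. Of the called genes, Igf2bp1 and Pik3ca passed the filter through the group where they are high. The median change of the 31 was 0.06, beside −0.01 over all genes.

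Of the Igf2 locus and the proteins that bind Igf2 mRNA, 4 of 5 genes were tested and 4 were called higher. Over all genes tested, 14.9% were called higher. H19, Igf2bp2 and Igf2bp3 were detected on all 6 arrays, whereas Igf2bp1 was not. Igf2bp2, which binds Igf2 mRNA and other transcripts, measured 9.82, 9.79 and 9.84 in hSRY-OFF and 11.50, 11.96 and 11.27 in hSRY-ON. That is a rise of 1.76 (standard error 0.18, limma adjusted p = 0.00166), with a tight hSRY-OFF group. H19, the untranslated RNA that is imprinted together with Igf2 but expressed from the other parental allele, measured 12.04, 11.80 and 11.77 in hSRY-OFF and 12.66, 12.20 and 12.47 in hSRY-ON. It rose by 0.57 (limma adjusted p = 0.0364), but the call was lost in 5 of 18 alternative fits, with adjusted p up to 0.124. Igf2bp3 rose by 0.74 with 1 of its 2 probes (limma adjusted p = 0.0184), a call lost in 3 of 18 alternative fits, with adjusted p up to 0.0687. Igf2bp1 reached detection on 3 hSRY-ON and 0 hSRY-OFF arrays. On the background-corrected values its rise was bounded at 1.57-fold or more (limma adjusted p = 0.00942). That bound depends on the correction, without which the log2 change was only 0.28. It passed the filter only through hSRY-ON, where it is high, and so is no support for a direction of the list. No probe was matched to Igf2as.

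Of the carrier and protease genes, 3 of 8 were tested and 1 was called, where 27.9% of all genes tested were called in either direction. Htra1, a secreted serine protease that can cut IGF binding proteins, measured 12.50, 12.59 and 12.71 in hSRY-OFF and 9.86, 9.92 and 11.34 in hSRY-ON. It fell by 2.22 (standard error 0.38, limma adjusted p = 0.00780), both of its probes were called lower, and hSRY-ON replicate 3 was again the nearest to hSRY-OFF. Igfals, the third part of the circulating complex with Igfbp3, changed by 0.27 (limma adjusted p = 0.516), and Stc2, an inhibitor of the pappalysin proteases, by 0.69 (limma adjusted p = 0.121). Neither was called. Igfbp1, Igfbpl1 and Stc1 were detected on no array, and no probe was matched to Pappa or Pappa2, proteases that cut IGF binding proteins.

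Of the receptor and adaptor genes, 6 of 11 were tested and 2 were called, where 27.9% of all genes tested were called in either direction. Irs2, an adaptor that couples the insulin and IGF1 receptors to PI3K, measured 7.95, 7.84 and 7.93 in hSRY-OFF and 8.86, 9.77 and 8.44 in hSRY-ON. It rose by 1.12 (limma adjusted p = 0.0380), with replicate 2 the highest as for Igfbp3. Grb10, an imprinted adaptor that dampens these receptors, measured 13.14, 13.08 and 13.13 in hSRY-OFF and 12.54, 12.52 and 12.87 in hSRY-ON, and fell by 0.47 (limma adjusted p = 0.0397). The call of Grb10 was lost in 8 of 18 alternative fits and that of Irs2 in 5. Insr, Insrr and Sos1 were detected on no array.

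Of the PI3K, AKT, FOXO and mTOR genes, 13 of 19 were tested and 3 were called, where 27.9% of all genes tested were called in either direction. Their median change was 0.02. Pik3r1, the regulatory subunit of PI3K, rose by 0.53 (limma adjusted p = 0.0442), although another of its 3 probes was called lower. Pdpk1, the kinase that activates AKT, rose by 0.74 (limma adjusted p = 0.0413). Both calls were lost in 9 of 18 alternative fits. Pik3ca, the catalytic subunit, fell by 1.13 (limma adjusted p = 0.0189) but was detected on only 1 hSRY-ON array, and without background correction its change was −0.34. Of the growth hormone genes, which set the output of Igf1 in many tissues, 5 of 6 were tested and limma called 0, also at an unadjusted p under 0.05. Ghr, the growth hormone receptor, changed by −0.27 (limma adjusted p = 0.244) and Socs2, a gene induced by growth hormone, by 0.22 (limma adjusted p = 0.374).

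**Figure D3:**
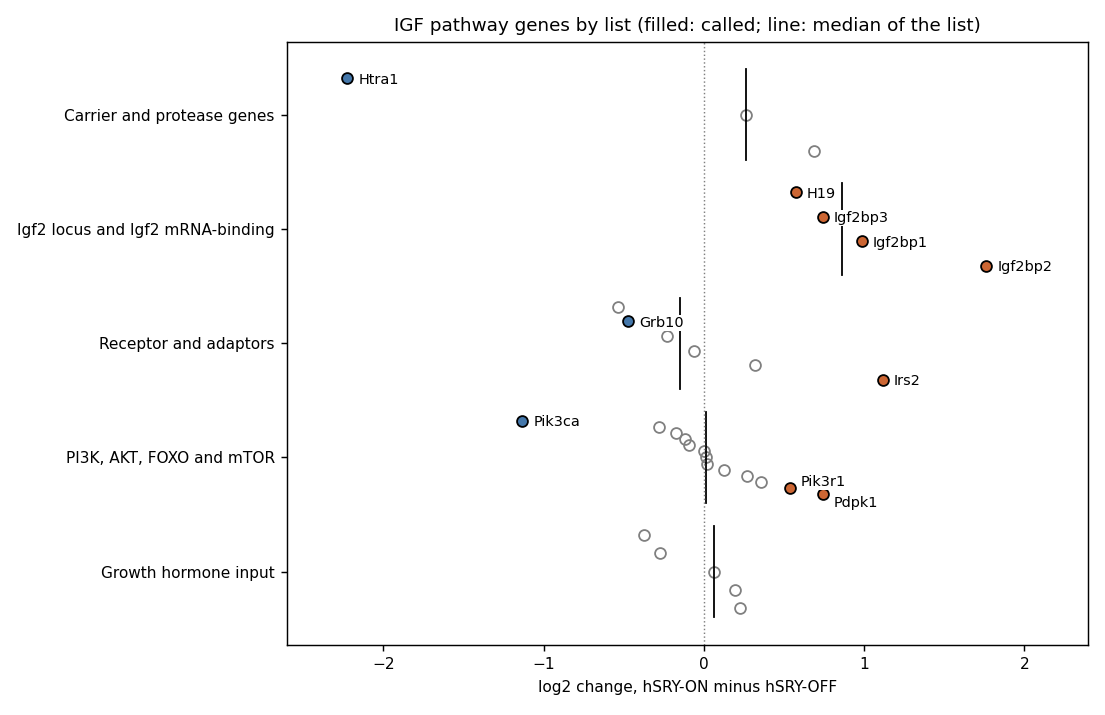
Fitted log2 change, hSRY-ON minus hSRY-OFF (horizontal axis), of each tested gene in the 5 pathway lists (vertical axis), from 3 arrays per group. Filled points were called (orange higher, blue lower), open points were not, and the black line is the median of the list. Igf2bp2 at 1.76 is the highest point and Htra1 at −2.22 the lowest, and Igf2bp1 was detected in hSRY-ON only.

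Markers of other cell types were measured on the same arrays. Beside their counts stand the shares over all 10292 genes tested, of which 14.9% were called higher and 12.9% lower. The summed normalized intensity of 10 mesenchyme and fibroblast markers, cells in which many of these genes are made, lay between 37425 and 42827 in hSRY-OFF and between 35891 and 40003 in hSRY-ON. Within this list Dcn (0.98) and Thy1 (0.97) were called higher and Col1a1 (−0.60) lower, and 7 were not called. Of 5 smooth muscle markers tested, 4 were called lower, with summed intensities of 33114 to 35682 in hSRY-OFF and 16585 to 24547 in hSRY-ON. Of 7 endothelial markers tested, 3 were called lower, with summed intensities of 62600 to 67896 in hSRY-OFF and 49861 to 51843 in hSRY-ON.

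Macrophages are a cell type that can make Igf1. Of 7 macrophage markers tested, 5 were called higher, against 14.9% of all genes tested, and Csf1r and Adgre1 were not called. Summed intensities were 24423 to 26506 in hSRY-OFF and 34557 to 42246 in hSRY-ON. Lyz2 made up most of these sums, with a mean log2 level of 14.44 in hSRY-OFF and a rise of 0.40. Of 10 hepatocyte markers, 4 were tested, with summed intensities of 5413 to 5931 in hSRY-OFF and 7528 to 10605 in hSRY-ON. Apoa1, Ahsg and Fga were detected on 3 hSRY-ON arrays and no hSRY-OFF array, so they passed the filter only through the group where they are high. Trf, the only one tested that was detected on all 6 arrays, made up most of these sums. Its mean log2 level was 12.47 in hSRY-OFF, where Apoa1, Ahsg and Fga were at 5.06 or less. Trf was called higher by 0.53 (limma adjusted p = 0.0436), while Alb, Ttr, Fgb and Cps1 were detected nowhere. Of 6 cardiac muscle markers tested, 2 were called higher and 1 lower, against 14.9% and 12.9% of all genes tested. Their summed intensities were 6330 to 8415 in hSRY-OFF and 4288 to 9070 in hSRY-ON. Nppa (5.55) and Actn2 (1.41) were called higher and Myl4 (−1.94) lower, so these sums mix opposite changes. Of 7 proliferation markers tested, 6 were called lower, against 12.9% of all genes tested. Their summed intensities were 6164 to 7637 in hSRY-OFF and 1873 to 3996 in hSRY-ON. The mean log2 level of the 7 was 9.13 to 9.43 in hSRY-OFF and 7.71, 7.63 and 8.51 in hSRY-ON replicates 1 to 3. Cnn1 of the smooth muscle list, Kdr of the endothelial list and Itgax of the macrophage list were detected on no array. By mean log2 level, the hSRY-ON array nearest to hSRY-OFF was replicate 3 in the proliferation, smooth muscle, macrophage, lung epithelium and cardiac muscle lists, replicate 2 in the hepatocyte list and replicate 1 in the endothelial and mesenchyme lists. The part of any of these lists in the IGF axis values was not tested.

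**Figure D4:**
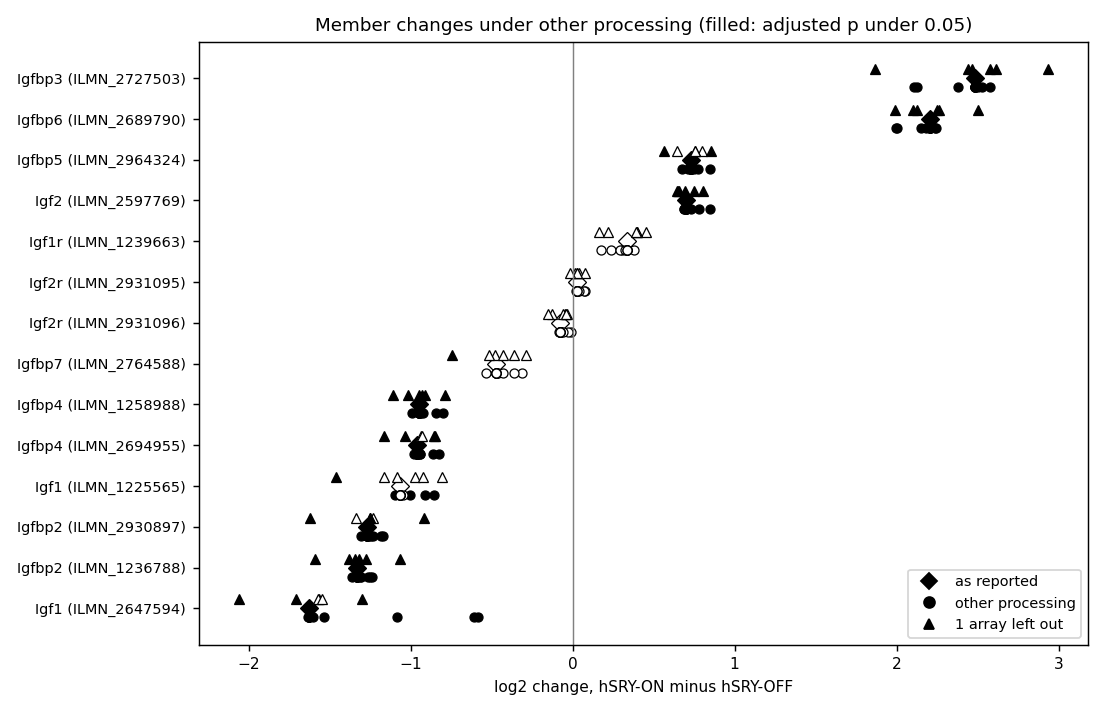
Log2 change, hSRY-ON minus hSRY-OFF (horizontal axis), of each tested IGF axis probe (vertical axis) as reported (diamonds), under other processing (circles) and with 1 array left out (triangles). Filled symbols have a limma adjusted p under 0.05. All symbols of the 9 called probes stay on their side of 0, and the dimmer Igf1 probe spreads from −2.06 to −0.59.

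The probes whose pattern over the 6 arrays was most like those of the ligands and the growth receptor were found by Pearson's r, as a description only, since all points share the same 2 groups. For the brighter Igf1 probe they were Hist1h2ah (r = 0.998), Hist1h2ao (0.998) and Fbxo27 (0.997). For Igf2 they were Tbxas1 (0.997), Kel (0.997) and Efcab1 (0.997). For Igf1r they were Hipk1 (0.993), Atl2 (0.991) and Pdcd6ip (0.987).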

How the data were processed

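RNA from 6 lungs was hybridised to Illumina MouseRef-8 version 2.0 arrays. The authors deposited, for each probe and array, an intensity on a linear scale, neither background-corrected nor normalized, and a detection p-value, the share of negative controls brighter than the probe. The summary software is not given in the sources used here. The study's methods name TCC, a count-based package. Because intensities call for another model, hSRY-ON was set against hSRY-OFF by lmFit and eBayes of limma 3.58.1 (R 4.3.3), on all 6 arrays without covariates.

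Background was corrected with nec from the detection p-values, with an offset of 16, followed by quantile normalization and log2. A probe was kept if at least 3 of 6 arrays detected it (detection p under 0.05). The offset compresses changes of dim probes, and quantile normalization removes any shift shared by all genes. Groups came from the sample labels, and no 2 arrays held identical values. P-values were two-sided and adjusted by Benjamini-Hochberg over the 13841 probes kept. Every probe of the 10 genes is reported. Pathway genes are represented by their brightest kept probe, the called ones are named, at most 4 a list, and the 3 most similar probes are named for Igf1, Igf2 and Igf1r. Uncalled pathway genes given with values were picked afterwards for their role. Where no array of a group detected a called pathway gene, the detected group's mean was set against the mean of the higher of the lowest detected signal and the gene's own signal per array. This gives a bound that holds only for the background-corrected values.

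RefSeq tables (GRCm38.p6) gave older symbols, neighbours and promoter windows, in which all 10 genes were found. The arrays' own probe sequences and protein sequences were not used here. The genes, lists and alternatives were chosen with earlier results of these data known. The pipeline was tested on simulated data with changes of 2-fold or more planted in bright probes. That does not cover dim probes or smaller changes. The number of arrays limits the precision.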

Additional observations from a re-analysis of the deposited data

How the results depend on the processing

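Of 19 alternatives, 18 had a fit of their own, which gave 251 results for single IGF axis probes. None of the called probes changed sign, 13 of the 251 fell short of the threshold and 11 gained it. All losses came from leaving out 1 array. The first-named Igfbp2 and Igfbp4 probes (ILMN_1236788 and ILMN_1258988), Igfbp3 and Igfbp6 kept their calls in all 18 fits, with adjusted p up to 0.0490, 0.0485, 0.0472 and 0.0171 in limma. With a stricter adjusted p under 0.01, limma called 1326 probes over the array, 1 IGF axis probe higher (Igfbp6) and 0 lower (6 were lower at an unadjusted p under 0.05), and 3 pathway genes. With 1 array left out, so that its group has 2, the array-wide count ran from 1504 (without hSRY-OFF replicate 1) to 4384 (without hSRY-ON replicate 1), and was 1621, 2103 and 2393 without hSRY-OFF replicates 2 and 3 and hSRY-ON replicate 2. IGF axis probes called higher ran from 2 (without hSRY-OFF replicate 2) to 4, those called lower from 2 (without hSRY-OFF replicate 1 or 2) to 6, and pathway genes called from 3 (without hSRY-OFF replicate 2) to 9. The last was 5 without hSRY-OFF replicate 1 or hSRY-ON replicate 2 and 4 without hSRY-OFF replicate 3. The cause of these moves beyond the smaller number of arrays was not tested. The replicate numbers share no litter or batch in the labels, and deviations of same-numbered arrays correlated by −0.107, 0.0957 and −0.0927, so the numbers were not taken to pair the arrays. With the replicate number as a block, 2655 probes were called over the array, 4 IGF axis probes were higher and 5 lower, and 5 pathway genes were called. The array weights per group were an alternative added after seeing the data. The signal over background limits the dimmer Igf1 probe, Pik3ca and Igf2bp1, whose changes without background correction were −0.59, −0.34 and 0.28.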
